A study of Rattus norvegicus with 10 samples.

Results

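The genes described here are the measured parts of the Wnt pathway in JUG2 cells, an enteric glial line derived from a rat primary culture of the enteric nervous system. The members are the Wnt ligands, the Frizzled receptors, the Lrp5 and Lrp6 co-receptors, the R-spondins with their Lgr receptors, the secreted antagonists of the Dkk and Sfrp families with Frzb, and the carriers and common targets of the signal. They were chosen by gene symbol, with earlier results of these data known, so shares of members called are descriptions. Among 23188 transcript clusters tested, 51 genes were found. The platform annotation named 50 of them. Znrf3 was named only in a supplementary table of the study that lists genes called in it, so it is described but kept out of every count of genes called, higher, lower or apart. No cluster carried the name of Wnt2, Wnt3a, Rspo4, Lgr6, Wif1 or Tcf7, and these genes were not analysed here.

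Wnt ligands are secreted lipid-modified proteins that bind Frizzled receptors and the co-receptors Lrp5 and Lrp6. In the canonical branch, binding stops the breakdown of beta-catenin, which then enters the nucleus and acts with Tcf and Lef factors. R-spondins bind Lgr receptors and hold back the ubiquitin ligases Znrf3 and Rnf43, which otherwise remove Frizzled receptors from the cell surface. In the neural crest, from which enteric glia derive, Wnt signalling takes part in the induction of the tissue and in fate choice.

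The data comprised 10 Clariom S rat arrays, which measure transcript abundance by probe hybridisation. Of them, 8 came from JUG2 cells stably transduced by lentivirus with a doxycycline-inducible Sox10 transgene, as 4 replicates left untreated (SOX10 -dox) and 4 replicates given 1 µg/ml doxycycline for 48 h (SOX10 +dox). The other 2 came from JUG2 cells carrying an inducible EmGFP in place of Sox10, with 1 untreated array (GFP -dox) and 1 array after the same dose and time (GFP +dox). Both lines also carried a Tet transactivator driven by an EF1a promoter and were selected with puromycin. The study describes transduced populations and no cloning step, parental JUG2 cells without vectors were not on these arrays, and the methods describe the replicates as independent experiments. Values are log2 signals, and an increase of 1 is a 2-fold rise.

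Sox10 itself was read first, since it is the induced gene. In replicates 2, 3 and 4 its log2 signal was 6.39, 6.11 and 6.43 in SOX10 -dox and 12.93, 12.62 and 13.02 in SOX10 +dox. In replicate 1 it ran the other way, with 12.90 in the array labelled -dox and 6.74 in the array labelled +dox, and it was 5.70 and 6.20 in GFP -dox and +dox. No label was exchanged. The comparison of SOX10 +dox with -dox was therefore made over replicates 2 to 4 (3 arrays against 3) and again over all 4 replicates as labelled. Of the 812 clusters called in replicates 2 to 4, 804 had the opposite sign in replicate 1. Of 9 enteric glia markers named by the platform, 5 rose in replicates 2 to 4 (Sox10, S100b, Erbb3, Ngfr and Nes) and 0 fell, beside 3.50% of all clusters called. Sox10 is the induced gene by which replicate 1 was set apart, so its rise was given by that choice. Gfap differed by 0.23 ± 0.26 (SE), Sox2 by -0.10 ± 0.32, Fabp7 by 0.01 ± 0.22 and Entpd2 by 0.13 ± 0.33. Over 32 markers of neurons, smooth muscle and fibroblasts, macrophages, endothelium and epithelium, Krt19 rose and Cd14 fell, and the mean log2 signal of these markers was 6.82 to 6.95 in SOX10 -dox and 6.83 to 6.89 in SOX10 +dox. The part of other cell types in the Wnt results was not tested, and in bulk RNA fewer cells of a type and less RNA per cell cannot be told apart.

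The largest induction among the Wnt genes was that of Tnfrsf19 (also called Troy), a receptor of the tumour necrosis factor receptor family and a known Wnt target, which rose 13.1-fold. The receptor genes Fzd3 and Lgr4, the secreted Dkk3 and the transcription factor gene Lef1 also rose, by 2.07- to 3.38-fold. Fzd4 and Rspo1 fell, each by 2.74-fold. A gene was called when its adjusted p was under 0.05 (limma, Benjamini-Hochberg over all 23188 clusters) and its change was at least 2-fold. Of the 50 counted members, 5 rose, 2 fell and 43 did not pass the test, so that 14.0% were called beside 3.50% of all clusters (2.26% higher and 1.24% lower). The median log2 difference of the members was 0.14, against -0.02 for all clusters, and 37 of the 50 lay within 0.5 of no difference. For 14 members (28.0%, against 20.0% of all clusters) the 3 arrays of one group lay wholly above the 3 of the other. The 5 that rose became 3 without SOX10 -dox replicate 2, +dox replicate 2 or -dox replicate 3, and 2 without SOX10 +dox replicate 3.

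**Figure D1:**
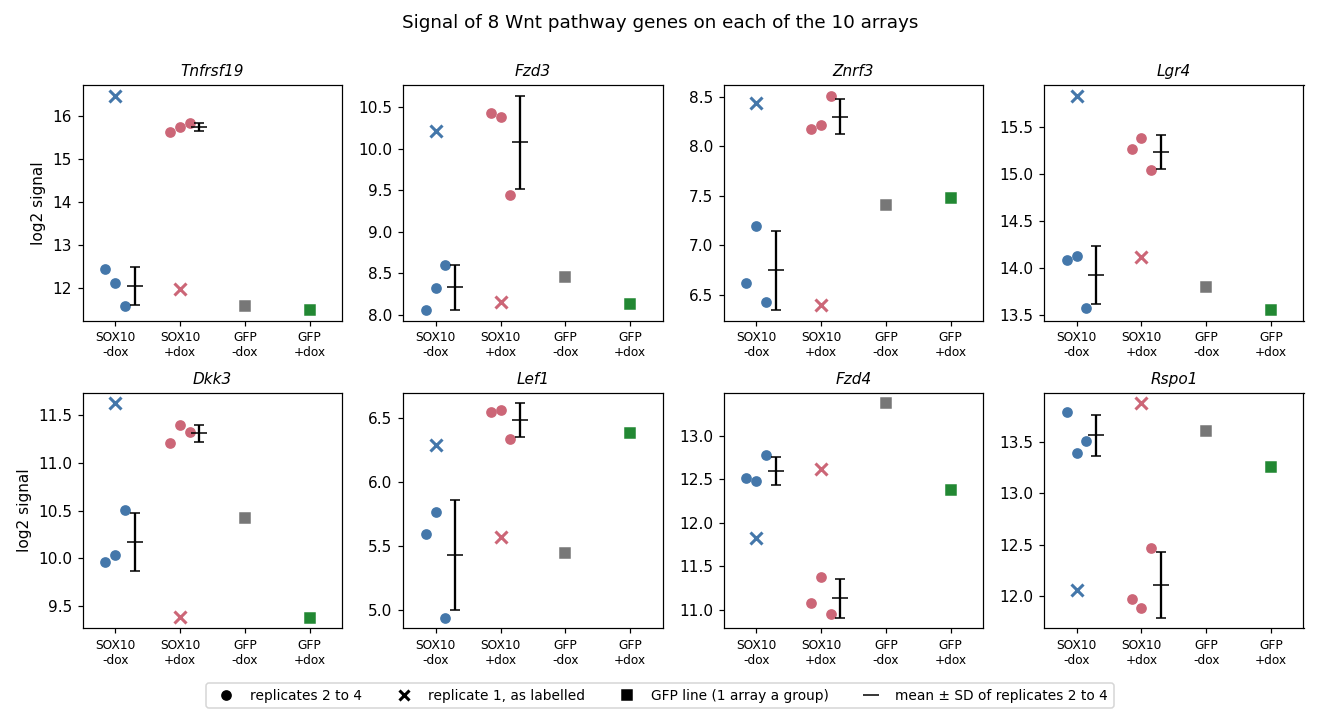
Log2 signal of the 7 members called in replicates 2 to 4 and of Znrf3 on each of the 10 arrays, with circles for replicates 2 to 4, crosses for replicate 1 as labelled, squares for the GFP line and bars for the mean ± SD of replicates 2 to 4. In Tnfrsf19 the SOX10 +dox circles sit between 15.64 and 15.84, above every other array except the replicate 1 array labelled -dox at 16.48.

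Promoter sequence is shown for Tnfrsf19, the member with the largest change, and for Lgr4 and Rspo1, a receptor and a ligand for it that were called in opposite directions. Each run is the 250 bases before the RefSeq start of the gene in the rat assembly GRCr8, 5′ to 3′ on the strand of the gene. Capitals mark any match, on either strand, of the 6-base forms ACAAAG or ACAATG, known as core elements of Sox binding, or TCAAAG, a form bound by Tcf and Lef factors. Tnfrsf19 is on the minus strand at chr15:39334567-39334816, Lgr4 on the plus strand at chr3:116901718-116901967 and Rspo1 on the plus strand at chr5:142536040-142536289.
Tnfrsf19: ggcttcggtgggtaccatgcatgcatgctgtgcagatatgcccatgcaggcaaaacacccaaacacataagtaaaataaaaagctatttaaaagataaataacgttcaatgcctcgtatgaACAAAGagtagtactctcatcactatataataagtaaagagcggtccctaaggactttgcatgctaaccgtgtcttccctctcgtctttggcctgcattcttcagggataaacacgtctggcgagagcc
Lgr4: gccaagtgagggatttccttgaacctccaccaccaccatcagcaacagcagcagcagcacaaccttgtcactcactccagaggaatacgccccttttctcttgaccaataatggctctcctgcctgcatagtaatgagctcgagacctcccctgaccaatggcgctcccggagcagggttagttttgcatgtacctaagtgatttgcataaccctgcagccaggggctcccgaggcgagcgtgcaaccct
Rspo1: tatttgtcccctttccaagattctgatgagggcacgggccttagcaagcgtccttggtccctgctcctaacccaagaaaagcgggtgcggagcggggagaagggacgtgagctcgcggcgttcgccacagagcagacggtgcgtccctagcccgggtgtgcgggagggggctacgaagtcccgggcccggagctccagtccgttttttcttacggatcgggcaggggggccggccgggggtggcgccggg
The Tnfrsf19 window held 1 match, of ACAAAG, whose first base lies 129 bases before the start, and the Lgr4 and Rspo1 windows held 0. A RefSeq promoter was found for 33 of the 51 members. ACAAAG was in 5 of these 33 windows (15.2%: Dkk1, Frzb, Sfrp5, Tnfrsf19 and Wnt8b) and in 16.3% of all 33469 rat promoter windows of the same length. The form ACAATG was in 2 windows (6.06%) and in 11.1% of all, and TCAAAG was in 5 windows (15.2%: Axin2, Dkk1, Fzd7, Nkd1 and Wnt8a) and in 13.9% of all windows. The first and last of these forms share the letters CAAAG, which on either strand were in 15 of the 33 windows (45.5%) and in 48.2% of all. These matches describe the letters of the windows and are not binding sites.

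None of the Wnt ligand genes was called. Over the 17 measured, 0 rose and 0 fell (limma, lowest adjusted p 0.619), and 0 reached an unadjusted p under 0.05, beside 14.8% of all clusters. Their differences ran from -0.35 (Wnt4) to 0.31 (Wnt16) with a median of 0.11, and their 95% intervals all lay between -0.99 and 0.93, inside the 2-fold limit. Their log2 signals ran from 2.76 to 6.93 over all arrays, where array medians were 6.69 to 6.86. The deposited table carries no detection call, so a change in a gene below the range of the array cannot be seen here.

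Wnt4, a ligand known for its part in kidney and gonad development, had the largest difference of the ligands. Its log2 signals were 6.0, 5.63 and 5.81 in SOX10 -dox replicates 2, 3 and 4 and 4.81, 5.85 and 5.74 in SOX10 +dox. The groups overlapped, with 1 low array in +dox replicate 2. The difference was -0.35 ± 0.29 (SE; adjusted p = 0.667), and -0.02 without that array. Wnt5a, the best known non-canonical ligand, measured 4.62, 4.87 and 4.95 in SOX10 -dox and 5.12, 5.14 and 4.91 in SOX10 +dox. These groups overlapped, with a difference of 0.24 ± 0.21 (adjusted p = 0.691). In the GFP line Wnt5a was 4.94 without and 6.08 with doxycycline, the only member at least 2-fold higher there, beside 3.66% of all clusters. Groups did not overlap for 1 of the 17 ligands (5.88%, against 20.0% of all clusters). It was Wnt11, a non-canonical ligand, at 5.63, 5.59 and 5.60 in -dox and 5.45, 5.29 and 5.27 in +dox. Its difference was small, at -0.27 ± 0.20 (limma, adjusted p = 0.619).

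Frizzled receptors changed in both directions. All 10 Frizzled genes were measured. Of these, 1 rose (Fzd3), 1 fell (Fzd4) and 8 did not pass the test (20.0% called, beside 3.50% of all clusters). Their median difference was 0.31. Fzd3, a receptor known for its role in planar cell polarity and axon guidance (transcript cluster TC1500001939.rn.2), measured 8.06, 8.32 and 8.60 in SOX10 -dox and 10.43, 10.39 and 9.44 in SOX10 +dox. The groups did not overlap, and +dox replicate 4 was the lowest induced array. Fzd3 rose by 1.76 ± 0.30 on the log2 scale (3.38-fold, adjusted p = 0.00661). GFP arrays were at 8.46 without and 8.13 with doxycycline.

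Fzd4, the receptor for Norrin and several Wnt ligands (TC0100001986.rn.2), measured 12.51, 12.48 and 12.78 in SOX10 -dox and 11.08, 11.38 and 10.95 in SOX10 +dox. All 3 induced arrays lay more than 1 log2 unit below the lowest untreated one, and Fzd4 fell by 1.46 ± 0.22 (adjusted p = 0.00378). Its signal was also lower with doxycycline in the GFP line, at 12.38 against 13.37 without. The doxycycline differences of the lines were -1.46 and -0.98, and they differed by -0.47 (95% interval -1.45 to 0.51, adjusted p = 0.824), so a fall particular to the SOX10 line was not shown.

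Fzd2, Fzd1 and Fzd6 had unadjusted p under 0.05 and did not pass the adjusted test. Fzd2 was higher by 0.76 ± 0.30 (adjusted p = 0.261), with 13.33, 13.64 and 14.16 in SOX10 -dox and 14.01, 14.41 and 14.98 in SOX10 +dox. Those arrays were higher in +dox within each replicate number although the groups overlapped. Fzd1 was at -0.67 ± 0.26 (adjusted p = 0.244) and Fzd6 at -0.71 ± 0.23 (adjusted p = 0.135), and only in Fzd6 did the groups not overlap. The other 5 Frizzled genes, Fzd5, Fzd7, Fzd8, Fzd9 and Fzd10, had differences between 0.08 and 0.46.

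**Figure D2:**
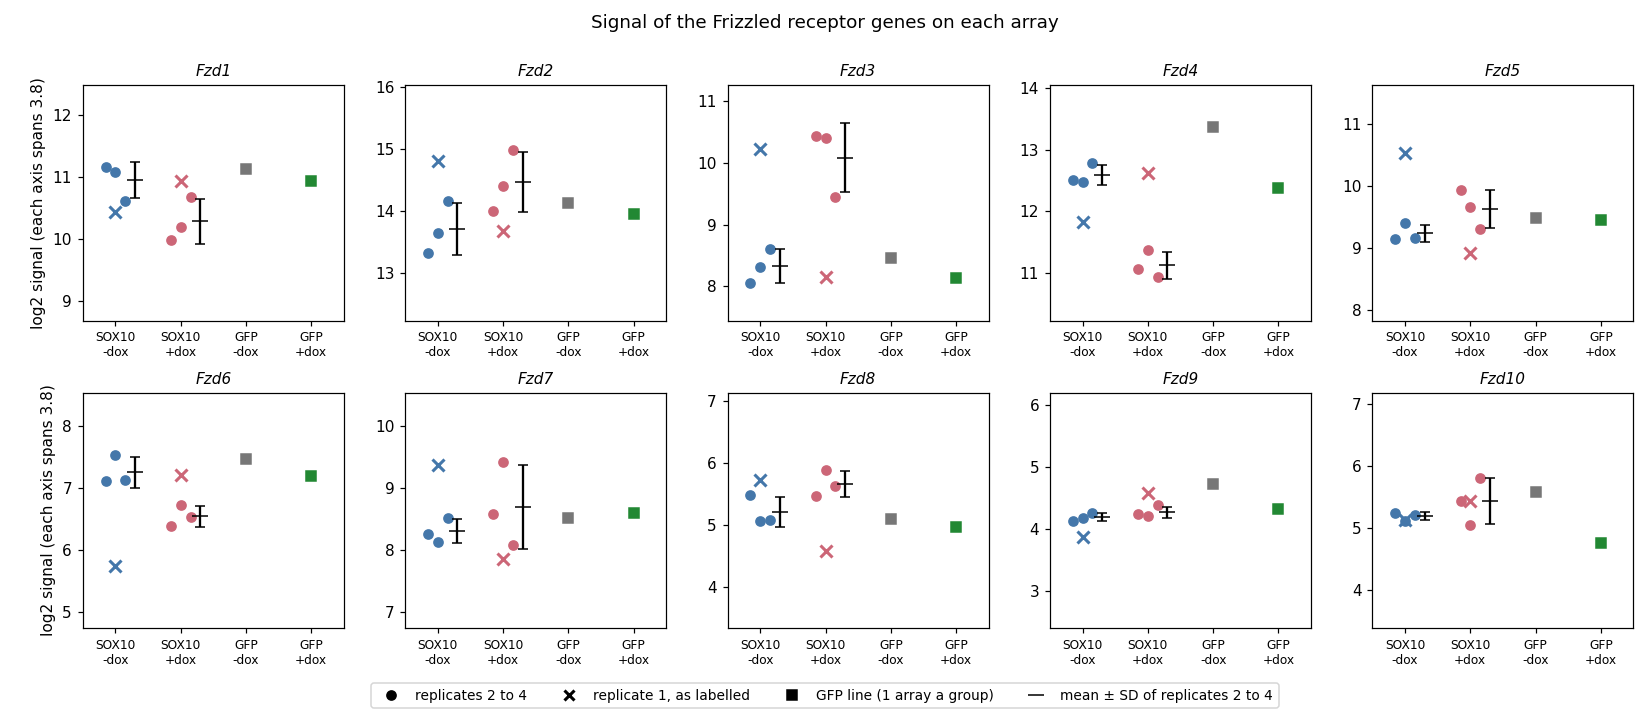
Log2 signal of the 10 Frizzled receptor genes on each array, with circles for replicates 2 to 4, crosses for replicate 1 as labelled, squares for the GFP line and bars for the mean ± SD of replicates 2 to 4. Fzd3 is higher and Fzd4 lower in the 3 SOX10 +dox circles than in any of the 3 SOX10 -dox circles, and the remaining panels show smaller shifts in either direction.

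Neither co-receptor passed the test. Lrp6 measured 11.47, 11.68 and 11.64 in SOX10 -dox and 12.17, 11.92 and 12.60 in SOX10 +dox, a difference of 0.63 ± 0.24 (adjusted p = 0.222) between groups that did not overlap. Lrp5 measured 11.04, 10.80 and 11.28 in SOX10 -dox and 10.52, 11.21 and 11.43 in SOX10 +dox. Its groups overlapped fully, with a difference of 0.01 ± 0.27 and a 95% interval from -0.59 to 0.61.

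R-spondin signalling genes split into a receptor that rose and a ligand that fell. Lgr4, an R-spondin receptor (TC0300001374.rn.2), measured 14.08, 14.12 and 13.57 in SOX10 -dox and 15.26, 15.38 and 15.04 in SOX10 +dox. The groups were separated by about 1 log2 unit, and Lgr4 rose by 1.30 ± 0.24 (2.47-fold, adjusted p = 0.00996). Without SOX10 +dox replicate 3 the adjusted p was 0.0577. Lgr4 in the GFP line was 13.79 without and 13.55 with doxycycline.

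Rspo1, a ligand of the Lgr receptors (TC0500001438.rn.2), measured 13.79, 13.39 and 13.51 in SOX10 -dox and 11.97, 11.88 and 12.47 in SOX10 +dox. All 3 induced arrays were lower than all 3 untreated ones, and Rspo1 fell by 1.45 ± 0.24 (adjusted p = 0.00597). The GFP arrays were at 13.60 without and 13.25 with doxycycline. The other 3 members of this group, Lgr5, Rspo2 and Rspo3, had differences of 0.27, -0.29 and 0.30 and overlapping groups.

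Among 9 secreted antagonists, 1 rose (Dkk3), 0 fell and 8 did not pass the test (11.1% called, beside 3.50% of all clusters). Dkk3, a divergent member of the Dickkopf family (TC0100006415.rn.2), measured 9.96, 10.04 and 10.51 in SOX10 -dox and 11.21, 11.39 and 11.32 in SOX10 +dox. The groups did not overlap, and Dkk3 rose by 1.13 ± 0.23 (2.19-fold, adjusted p = 0.0181). That call was lost when replicate 2 or 3 of either group was left out, with an adjusted p of 0.089 without SOX10 -dox replicate 2, 0.0897 without -dox replicate 3, 0.0598 without +dox replicate 2 and 0.083 without +dox replicate 3. In the GFP line Dkk3 was lower with doxycycline, at 9.38 against 10.42, and the lines differed by 2.18 (95% interval 1.18 to 3.18, adjusted p = 0.0929).

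Frzb, a secreted Wnt binder related to the Frizzled ectodomain, measured 3.30, 4.51 and 4.08 in SOX10 -dox and 4.86, 4.99 and 5.57 in SOX10 +dox. On all 10 arrays its signal lay below the array medians of 6.69 to 6.86. The groups did not overlap, and the difference of 1.18 ± 0.32 did not pass the test (limma, adjusted p = 0.0752). With the replicate number as a block it did (adjusted p = 0.0235). Sfrp4, of the same kind, was at -0.69 ± 0.23 (adjusted p = 0.156) and at -0.67 between the GFP arrays. The remaining 6 antagonists (Dkk1, Dkk2, Dkk4, Sfrp1, Sfrp2 and Sfrp5) had differences between -0.31 and 0.43.

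Ctnnb1, which encodes beta-catenin, measured 15.77, 15.93 and 15.78 in SOX10 -dox and 16.02, 16.20 and 15.98 in SOX10 +dox. These groups did not overlap, but the difference was small, at 0.24 ± 0.21 (adjusted p = 0.685, 95% interval -0.22 to 0.69). Axin1, a scaffold of the complex that breaks down beta-catenin, measured 8.75, 8.17 and 8.23 in SOX10 -dox and 8.65, 8.07 and 8.14 in SOX10 +dox. Its groups overlapped, with a difference of -0.09 ± 0.25.

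Lef1, a nuclear partner of beta-catenin and itself a Wnt target (TC0200002214.rn.2), measured 5.59, 5.76 and 4.94 in SOX10 -dox and 6.54, 6.56 and 6.33 in SOX10 +dox. The untreated arrays varied more than the induced ones, and Lef1 rose by 1.05 ± 0.25 (2.07-fold, adjusted p = 0.0458). The call was lost without any single one of the 6 SOX10 arrays (adjusted p from 0.0547 to 0.165), with quantile normalisation (0.065) or with arrays centred on their medians (0.0579), and with array weights the difference of 0.97 was under 2-fold. Lef1 in the GFP line was 5.44 without and 6.38 with doxycycline, a difference of 0.93, and the lines differed by 0.12 (95% interval -1.01 to 1.24, adjusted p = 0.973). A rise particular to the SOX10 line was not shown for Lef1. Its signal was low, below the array medians of 6.69 to 6.86 on all 10 arrays.

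The common transcriptional readouts of the canonical branch did not move together. Tnfrsf19 (TC1500001828.rn.2) measured 12.44, 12.11 and 11.56 in SOX10 -dox and 15.64, 15.76 and 15.84 in SOX10 +dox. The induced arrays lay more than 3 log2 units above the highest untreated one, and Tnfrsf19 rose by 3.71 ± 0.26 (adjusted p = 1.82e-05). In the GFP line it was 11.56 without and 11.48 with doxycycline. It was the only one of the 50 members whose doxycycline effect differed between the lines by the same test, by 3.79 (95% interval 2.66 to 4.92, adjusted p = 0.0102), beside 0.384% of all clusters called in that comparison.

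Axin2, the most used readout of canonical signalling and a negative regulator of it, measured 5.36, 5.67 and 6.0 in SOX10 -dox and 4.73, 5.95 and 5.63 in SOX10 +dox. Its groups overlapped, with a difference of -0.24 ± 0.32 (adjusted p = 0.812) and a 95% interval from -0.94 to 0.46, inside the 2-fold limit. Nkd1, an inhibitor induced by the pathway, measured 7.78, 7.56 and 8.01 in SOX10 -dox and 7.64, 8.03 and 7.56 in SOX10 +dox, which is -0.04 ± 0.23 (adjusted p = 0.962). Notum, which removes the lipid from Wnt ligands, measured 3.96, 4.11 and 4.49 in SOX10 -dox and 3.96, 3.78 and 3.79 in SOX10 +dox. Its difference was -0.34 ± 0.22 (limma, adjusted p = 0.555). Signals of Axin2 and Notum lay below the array medians of 6.69 to 6.86, as those of most ligands did. A change below the range of the array cannot be seen for them, and activity of the pathway was not tested.

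Znrf3, the ubiquitin ligase that R-spondins hold back and a target of the pathway (TC1400002167.rn.2), measured 6.62, 7.20 and 6.43 in SOX10 -dox and 8.17, 8.22 and 8.51 in SOX10 +dox. The groups were apart by about 1 log2 unit, and the difference was 1.55 ± 0.25 (2.93-fold, adjusted p = 0.00569). Because its name came from a list of genes called by the study on these arrays, its change is not independent of how it was found. Its GFP signals were 7.41 without and 7.48 with doxycycline, both between the SOX10 groups.

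**Figure D3:**
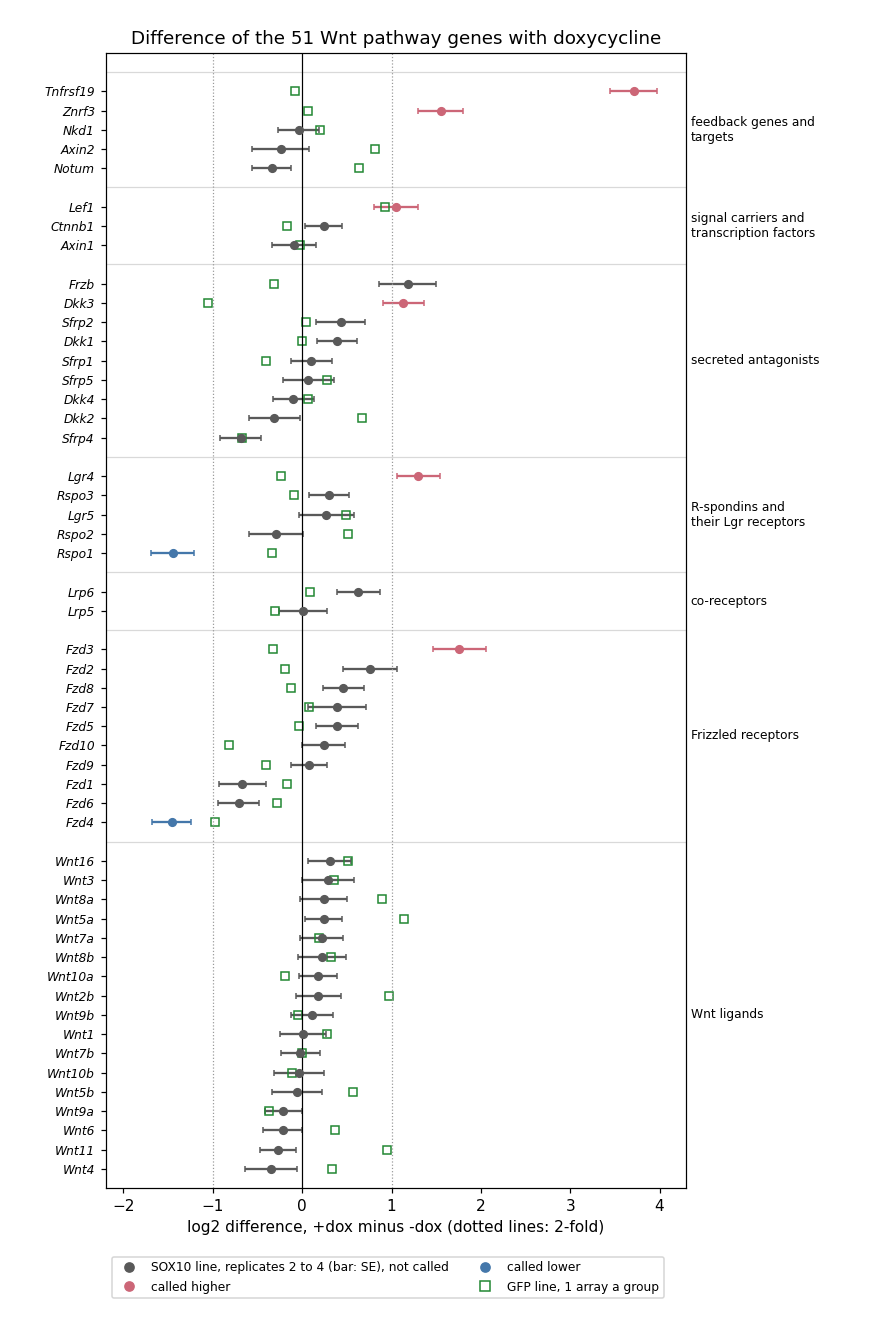
Log2 difference of +dox minus -dox for the 51 genes by role, with filled circles and SE bars for the SOX10 line over replicates 2 to 4 (red called higher, blue called lower, grey not called) and open squares for the GFP line with 1 array a group. The 17 Wnt ligands lie between -0.35 and 0.31 in the SOX10 line, and Tnfrsf19 at 3.71 lies farthest from 0.

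Doxycycline in the GFP line called none of the 50 members (lowest adjusted p 0.707) and 0.00% of all clusters. That comparison has 1 array a group and takes its spread from the SOX10 arrays. An unadjusted p under 0.05 was reached by 5 members (Wnt5a, Wnt11 and Wnt2b higher, Dkk3 and Fzd4 lower), or 10.0%, against 6.29% of all clusters. The median member difference was 0.00 and the range -1.05 (Dkk3) to 1.14 (Wnt5a). Among the ligands 12 of 17 were higher with doxycycline, with a median of 0.33, beside 11214 of 23188 clusters with a median of -0.02. The ligand signals were low (2.76 to 6.93), and a rise of the ligands with doxycycline was not shown by 1 pair of arrays. For Fzd3, Lgr4 and Rspo1 the difference between the lines was 2.09, 1.54 and -1.11, and with 1 GFP array a group none of these passed (limma adjusted p = 0.252, 0.321 and 0.52).

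Over all 10 arrays as labelled, 0 members and 0.00% of clusters were called in the SOX10 line (limma). At an unadjusted p under 0.05 (3.72% of all clusters) there were 2 members, Frzb higher by 0.99 ± 0.29 and Fzd4 lower at -0.89 ± 0.35. Tnfrsf19 was then at 1.65 ± 1.07, Fzd3 at 0.80 ± 0.55, Lgr4 at 0.55 ± 0.44, Dkk3 at 0.29 ± 0.47, Lef1 at 0.61 ± 0.31 and Rspo1 at -0.64 ± 0.46. In replicate 1 all 7 called members had the opposite sign to replicates 2 to 4, and 33 of the 50 members did (66.0%, against 61.9% of all clusters). Tnfrsf19 was 16.48 in the replicate 1 array labelled -dox and 11.96 in that labelled +dox, Fzd3 10.22 and 8.15, and Lgr4 15.83 and 14.11. Dkk3 was 11.62 and 9.39 in these arrays, Lef1 6.29 and 5.57, Fzd4 11.83 and 12.62, and Rspo1 12.06 and 13.87. For each of these genes the replicate 1 array with high Sox10 was shifted toward the other arrays with high Sox10. Frzb was the exception among the larger differences, at 4.41 and 4.83.

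**Figure D4:**
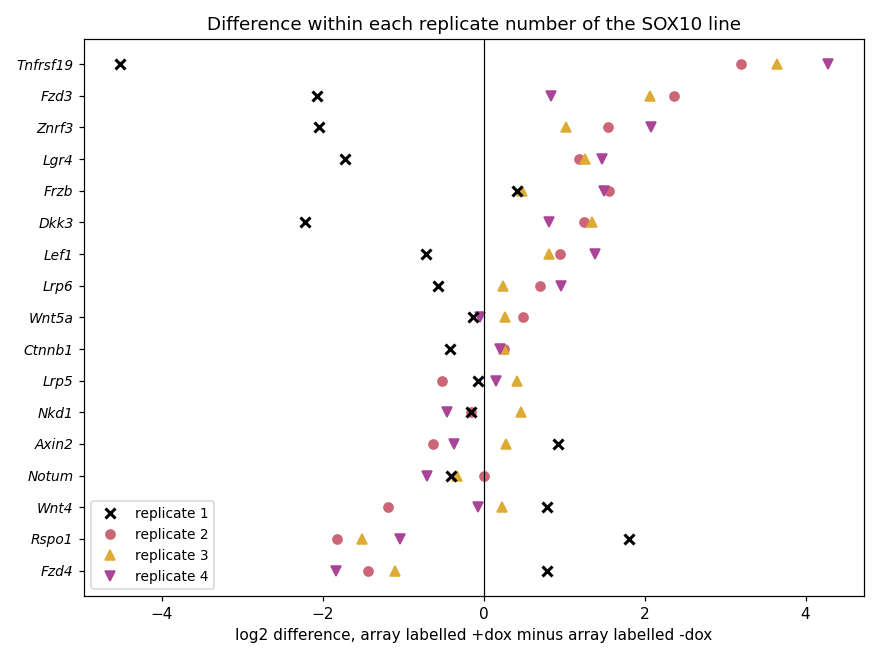
Log2 difference of the array labelled +dox minus the array labelled -dox with the same replicate number, for 17 Wnt genes in the SOX10 line, with crosses for replicate 1 and filled symbols for replicates 2, 3 and 4. For Tnfrsf19, Fzd3, Znrf3, Lgr4, Dkk3, Lef1, Rspo1 and Fzd4 the cross lies on the opposite side of 0 from the 3 filled symbols.

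Beyond the members, 5 lists of other Wnt pathway genes held 72 genes, of which 59 were measured and named by the platform. Of these, 5 rose, 2 fell and 52 did not pass the test (11.9% called, against 3.50% of all clusters), with a median difference of -0.05. Of 2 genes for Wnt secretion 0 were called, and of 20 genes of the destruction complex and beta-catenin partners 1 was, Btrc, a ubiquitin ligase subunit that marks beta-catenin for breakdown, which rose by 1.20 ± 0.24 (adjusted p = 0.0187). Prickle1, a core gene of planar cell polarity, was the only one of 12 genes of that branch to be called and fell by 1.26 ± 0.29 (adjusted p = 0.0343). Kremen1, a receptor for Dkk proteins, rose by 1.29 ± 0.28 (limma, adjusted p = 0.0247) as the only one of 8 other cell surface and secreted modulators. Between the GFP arrays Btrc was at 0.36, Kremen1 at -0.20 and Prickle1 at -0.67. The lines differed by -0.59 for Prickle1, so a fall particular to the SOX10 line was not shown for it.

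Of 17 other transcriptional targets, 3 rose and 1 fell (23.5% called, against 3.50% of all clusters). Their median difference was -0.10, with 6 differences above 0 and 11 below it. Nkd2, a relative of Nkd1, measured 11.27, 10.71 and 11.36 in SOX10 -dox and 12.83, 12.58 and 12.24 in SOX10 +dox, and rose by 1.43 ± 0.26 (adjusted p = 0.00941). Nkd1 and Nkd2 thus gave different calls in the same arrays, with no test of the difference between them. Cd44, a cell surface receptor for hyaluronan, and Jun, a subunit of AP-1, each rose by 1.88 ± 0.33 (limma, adjusted p = 0.00911 and 0.00798). In the GFP line the doxycycline difference was -0.63 for Nkd2, 0.04 for Cd44 and -1.08 for Jun. Ccn4, a secreted matricellular protein, fell by 1.24 ± 0.21 (adjusted p = 0.00642), and between the GFP arrays it was at -1.03. Ccnd1, a cell cycle target, was at -0.70 ± 0.21 (adjusted p = 0.118) and did not pass. Tcf7l2, a nuclear partner of beta-catenin, was named only in the study's list of called genes and stands outside these counts, at 1.82 ± 0.24 (adjusted p = 0.00134).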

How the data were processed

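RNA of the 10 cultures was hybridised to Clariom S rat arrays by the authors, who processed them in Transcriptome Analysis Console. The authors deposited 1 log2 signal per probe set and array, already summarised and normalised. Background correction and normalisation method were not given in the sources used here. Signals of different probe sets were compared only to describe low signals beside array medians, to average markers and to filter the dimmest clusters. Of 24834 probe sets, 1646 controls were left out and 23188 transcript clusters tested. Platform symbols named 15049, all matched to RefSeq through Entrez IDs. Groups follow the labels.

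One limma fit (version 3.58.1, R 4.3.3) had a mean for each of 4 groups, over replicates 2 to 4 of the SOX10 line with both GFP arrays, and a second fit used all 10 arrays. Contrasts were +dox minus -dox in each line and the difference between lines. Calls required an adjusted p under 0.05 and a 2-fold change. Methods and legend of the study differ on the adjusted p, so 0.01 was an alternative, beside quantile normalisation, median centring, a filter on the 25% dimmest clusters, array weights, an intensity trend with robust estimation, the replicate number as a block and leaving out single arrays. The fit was also run on simulated data with independent noise for each array and no pairing, and no result here rests on that run. In the real data, same-numbered SOX10 arrays deviated together (correlations 0.194, 0.15 and 0.411 for replicates 2, 3 and 4). Arrays of replicates 2 and 3 also correlated across numbers (0.171 and 0.13). The main fits did not use this pairing, and only the run with the replicate number as a block did. SDs of the SOX10 groups are over 3 arrays a group. The fit of all 10 arrays used 4 a group, and these numbers limit the precision. SEs and intervals come from limma, which pools the spread over groups and moderates it with that of all clusters. They are therefore not the spread of the arrays of that gene alone. For Wnt11 the SDs were 0.02 in SOX10 -dox and 0.10 in SOX10 +dox, and the SE was 0.20. Array signals give no counts.

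Per-array values are given for every called member, the common readouts and signal carriers, and the member with the largest difference in each role. They are also given for every member at least 2-fold apart between the GFP arrays. A few more were chosen after their values were seen (Wnt11, Fzd2, Axin1 and, from the other Wnt lists, Nkd2). The other genes called in those lists are given without per-array values. Members and lists were chosen with earlier results of these data known. The authors' own comparison columns were not used.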

Additional observations from a re-analysis of the deposited data

Results flagged for a closer look

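Tnfrsf19 stood out because its doxycycline effect differed between the lines, by 3.79 on the log2 scale (limma, adjusted p = 0.0102). It rose in 3 of 3 replicate numbers from 2 to 4 and the single GFP pair was at -0.08.

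Within the 4 SOX10 arrays of a group, 5 of 34 sets of values (17 genes, Znrf3 included, in each group) held 1 array far from the other 3. These genes were chosen partly by their calls in replicates 2 to 4, and their sets share the same arrays. The number of such sets can therefore not be compared with chance. The replicate 1 array labelled +dox was the low one for Tnfrsf19 (11.96), Dkk3 (9.39) and Znrf3 (6.4), and Sox10 on the same array was 6.74, beside 12.62 to 13.02 in the other 3. For Wnt4 the low array was SOX10 +dox replicate 2 (4.81). For Nkd1 the high array was SOX10 +dox replicate 3 (8.03), where Sox10 was 12.62.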

How the results depend on the processing

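The 2 members that fell over replicates 2 to 4 kept their call in every alternative run. The 5 that rose were 3 at an adjusted p under 0.01 and from 2 to 4 when 1 array was left out. With the replicate block 6 rose and 2 fell, since Frzb was added, and the block changed no other call. The 1 member that differed between the lines was 0 at an adjusted p under 0.01 or over all 10 arrays, 2 with array weights (Dkk3 added) and from 1 to 2 with 1 array left out (Fzd3 added without SOX10 +dox replicate 4). Leaving out arrays for the GFP and between-line comparisons was chosen after seeing the data. Small differences changed sign. Leaving out 1 array moved Axin2 from -0.50 to 0.11, Lrp5 from -0.18 to 0.28, Nkd1 from -0.19 to 0.07 and the Lef1 difference between lines from -0.13 to 0.28. Array weights put Lrp5 at -0.02 and Nkd1 at 0.07, quantile normalisation put Tnfrsf19 at 0.11 in the GFP line, and all 10 arrays put the differences between lines at 0.09 for Fzd4 and -0.33 for Lef1. Of the other values for single genes, Znrf3 included, 554 kept direction and side of the threshold, 18 lost the call and 3 gained it. No gene had several clusters, so the choice between clusters could not be varied. The cause of the shifts was not tested. The table holds no background signal, so what low signals limit could not be measured.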

Other observations

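The untreated lines were set side by side for the same genes, as a description with 1 GFP array. In GFP -dox, 26 of the 50 members lay inside the range of SOX10 -dox replicates 2 to 4, 14 above and 10 below it. Fzd4 was 13.37 in GFP -dox against 12.48 to 12.78 in SOX10 -dox, and Tnfrsf19 was 11.56 against 11.56 to 12.44.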
